A study of Danio rerio with 2 samples.

Results

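The SoxB genes of zebrafish (Danio rerio) are described here in cells sorted from crestin_1kb:EGFP embryos at 15 SS, the somite stage. The members were chosen by symbol, as the zebrafish genes of the SoxB family other than sox14: sox1a, sox1b, sox2, sox3, sox19a, sox19b, sox21a and sox21b. All 8 had a row of their own among the 14428 rows of the table, and none shared a row with another symbol. All 8 also reached 1 FPKM in at least 1 library, the minimum for a gene to be considered. FPKM is the number of fragments mapped to a gene, scaled by gene length and by the mapped fragments of the library, so levels can be compared between genes.

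The study had 2 libraries, and both carried the same transgene, in which a 1 kb fragment of the neural crest gene crestin drives EGFP. One library (EGFP+) was made from about 5500 fluorescent cells and the other (EGFP-) from about 100000 cells without fluorescence. EGFP reports the activity of that fragment, and the EGFP- cells are a mixture from the whole embryo. Each group is a single library, so there is no replicate error and no test, and every difference below is a description of these 2 libraries. In sorted bulk samples, fewer cells of a type and less RNA per cell cannot be told apart.

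SoxB proteins are DNA-binding factors with an HMG box. The SoxB1 group (sox1, sox2, sox3 and sox19) activates transcription and keeps neural cells in the progenitor state, often bound to DNA beside a POU-domain partner, and its members can stand in for each other. The SoxB2 group (sox14 and sox21) represses transcription, and in chick Sox21 opposes SoxB1 activity and promotes neuronal differentiation. In chick, Sox2 is also switched off as neural crest cells form at the border of the neural plate.

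The label of the sort was checked on neural crest genes. This marker list and those of the other tissues were chosen with earlier results of these data known. Of 11 crest markers with a row, 8 were at least 2-fold higher in EGFP+ cells, 3 lay less than 2-fold apart and 0 were lower, where 22.9% of all genes considered were higher. Sox10, a SoxE factor of the crest, stood at 147 FPKM in EGFP+ and 16.3 FPKM in EGFP- cells. Foxd3 stood at 86.7 against 7.04 FPKM and tfap2a at 188 against 44.6 FPKM, the EGFP+ value first. Crestin and EGFP themselves were not analysed here. Markers of some other tissues were also higher in EGFP+ cells. All 5 kidney markers were higher (summed level 268 against 62.8 FPKM). Of 4 hatching gland markers 2 were higher and 1 lower (1499 against 549 FPKM), with he1a alone at 1004 against 160 FPKM. Of 6 epidermis markers 2 were higher and 0 lower, with near-equal sums (848 against 849.5 FPKM). Endothelial markers were lower in 4 of 5 cases (151 against 667 FPKM) and muscle markers in 4 of 6 (66.4 against 170 FPKM), with 1 muscle marker higher. Of 5 erythroid markers 2 were lower and 0 higher (2330 against 4327 FPKM). Over all genes considered 26.5% were lower. The part of these tissues in the SoxB values was not tested.

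SoxB1 transcripts were present in EGFP+ cells at levels below those of EGFP- cells. The summed SoxB1 level was 154 FPKM in EGFP+ and 220.2 FPKM in EGFP- cells, a ratio of 0.702. All 6 SoxB1 members had the lower value in EGFP+ cells, against 51.5% of the 9685 genes considered. The differences were small: sox2 and sox19b were at least 2-fold lower on the log2(FPKM + 1) scale, and the other 4 lay less than 2-fold apart. The SoxB2 genes sox21a and sox21b differed by more and in opposite directions.

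**Figure D1:**
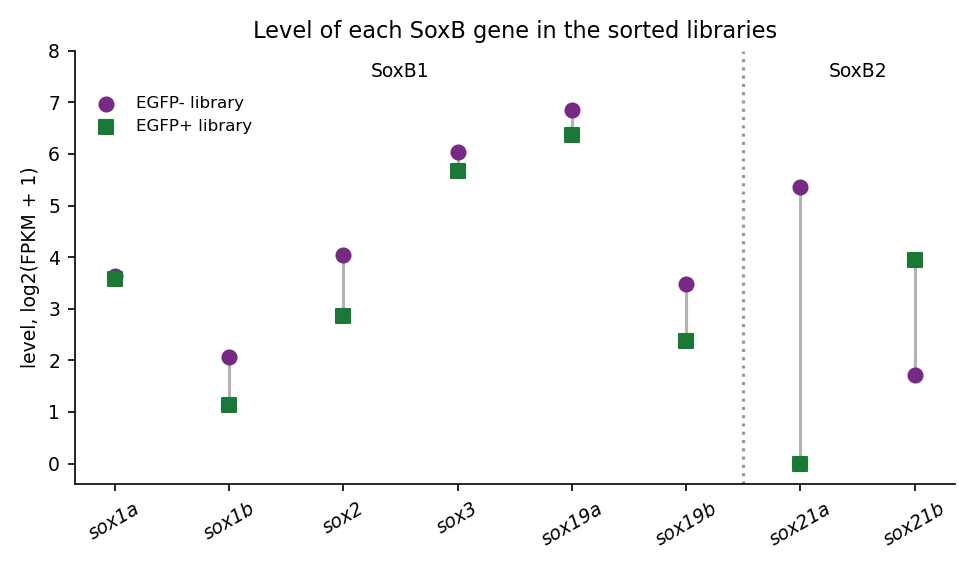
Level of each SoxB gene as log2(FPKM + 1) on the vertical axis, 1 point per library (circles EGFP-, squares EGFP+), with a grey line joining the values of a gene. The 6 SoxB1 genes have the square at or below the circle, sox21a is listed at 0 in EGFP+ cells, and sox21b is the one member with the square above the circle.

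Counted over the members, 3 of 8 were at least 2-fold lower in EGFP+ cells and 1 was at least 2-fold higher. Over all genes considered, 26.5% were lower and 22.9% higher by the same rule. With 8 genes, these counts lie close to that background, so the number of calls sets nothing apart about the SoxB genes. The median log2 difference was -0.71 over the 8 members and -0.04 over all genes considered. The SoxB1 median alone was also -0.71.

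Sox19a, a SoxB1 factor of the neural plate, was the most abundant member in both libraries. It stood at 81.6 FPKM in EGFP+ and 115 FPKM in EGFP- cells, a log2 difference of -0.49. Of the genes above 0, 81.1% in EGFP+ and 87.5% in EGFP- cells had a level no higher than this. An abundant SoxB1 transcript was thus measured in both sorted fractions, with a modest difference.

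Sox3, a factor of the neural plate and the sensory placodes, was second in both libraries. It stood at 50.2 FPKM in EGFP+ and 64.8 FPKM in EGFP- cells, a log2 difference of -0.36. Sox19a and sox3 together made up 85.3% of the summed SoxB1 level in EGFP+ and 81.7% in EGFP- cells. The pair therefore set most of the sum, and the ratio of sox19a to sox3 was 1.63 and 1.78 in these libraries.

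Sox2, the SoxB1 factor best known for holding neural stem and progenitor cells undifferentiated, was much less abundant than sox19a and sox3. It stood at 6.24 FPKM in EGFP+ and 15.4 FPKM in EGFP- cells. The ratio of FPKM was 0.404 and the log2 difference -1.18. On this scale it was the lowest value among the SoxB1 genes, while as a plain ratio of FPKM sox1b was lower, at 0.377. Of the 3040 genes within 2-fold of sox2 in EGFP- cells, 31.7% were also at least 2-fold lower in EGFP+ cells, so a difference of this size was common at this level. Relative to sox3, sox2 was lower still in EGFP+ cells, with a sox3 to sox2 ratio of 8.05 there and 4.19 in EGFP- cells.

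Sox19b, which is supplied to the egg by the mother and acts with pou5f3 and nanog when the zebrafish genome is first switched on, stood at 4.196 FPKM in EGFP+ and 10.2 FPKM in EGFP- cells. Its log2 difference was -1.11. Of the 2762 genes within 2-fold of its EGFP- level, 31.9% were at least 2-fold lower. The duplicate sox19a exceeded sox19b 19.5-fold in EGFP+ and 11.3-fold in EGFP- cells.

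The sox1 duplicates, which act in the central nervous system and the lens, had log2 differences further apart than those of the sox19 pair. Sox1a stood at 11.01 FPKM in EGFP+ and 11.5 FPKM in EGFP- cells, a log2 difference of -0.06. It was the SoxB1 gene with the closest values. Sox1b stood at 1.202 against 3.19 FPKM, a log2 difference of -0.93 that stops short of 2-fold because the pseudocount of 1 FPKM is close to its level. The sox1a to sox1b ratio was 9.16 in EGFP+ and 3.61 in EGFP- cells.

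Just past the 2-fold limit were sox19b and sox2, at -1.11 and -1.18, and just short of it was sox1b, at -0.93. With no replicates these 3 genes are not separated by the limit, and as plain ratios of FPKM they stood close together, at 0.411, 0.404 and 0.377. Scatter at such levels was wide. Genes above 0 in both libraries were grouped by the geometric mean of their values. The SD of the log2 difference was 1.35 for the 2431 genes between 5 and 20 FPKM. For the 2858 genes between 20 and 100 FPKM it was 1.101, and for the 901 genes between 1 and 5 FPKM it was 1.27. Each SoxB1 difference was smaller than the SD of genes at its own level. That SD was taken across genes between 2 unlike cell fractions, so it includes real differences between them. It does not measure the error of a single gene.

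**Figure D2:**
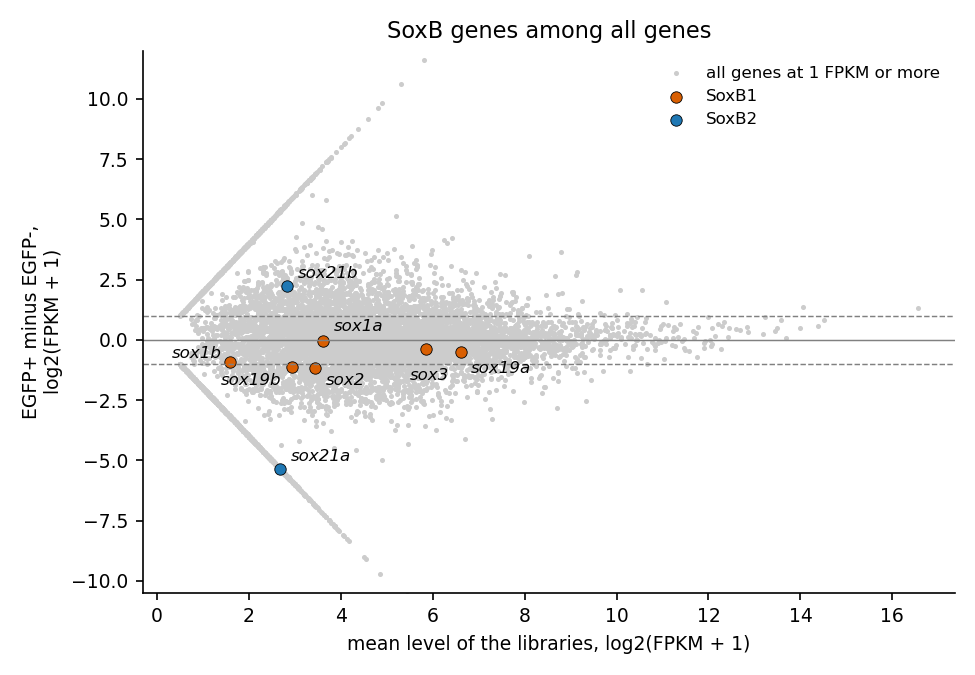
Log2 difference (EGFP+ minus EGFP-, log2(FPKM + 1), vertical) against the mean level of both libraries (horizontal), with all 9685 genes in grey and the SoxB genes in colour. Dashed lines mark 2-fold; the 6 SoxB1 points lie inside the grey cloud between -1.18 and -0.06, and sox21a lies on the lower edge formed by genes listed at 0 in EGFP+ cells.

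The SoxB2 repressors differed most. Sox21a, at 40.3 FPKM the third most abundant member in EGFP- cells, was listed at 0 in EGFP+ cells, so no fold is given. A value of 0 can be a lost estimate as well as an absent transcript. Of the 2827 genes within 2-fold of sox21a in EGFP- cells, 270 were listed at 0 in EGFP+ cells, a share of 9.55%. The reading at 0 for sox21a is therefore one of many at its level.

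Sox21b was the single member that was higher in EGFP+ cells. It stood at 14.5 FPKM there and 2.30 FPKM in EGFP- cells, a 6.28-fold ratio of FPKM and a log2 difference of 2.23. Of 2946 genes within 2-fold of its EGFP+ level, 11.4% were listed at 0 in EGFP- cells. Of the 2610 that were above 0 there, 4.44% had a ratio at least as high as that of sox21b. It moved from last place among the 8 members in EGFP- cells to the third place in EGFP+ cells. Sox14, the other SoxB2 gene and not a member of the set, was listed at 0 in both libraries.

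The SoxB2 level came from a different duplicate in each library. Sox21a made up 94.6% of the summed SoxB2 level in EGFP- cells, and sox21b made up all of it in EGFP+ cells. The summed SoxB2 level was 14.5 FPKM in EGFP+ and 42.6 FPKM in EGFP- cells. Opposite calls within a pair were not peculiar to sox21. Among 733 pairs of symbols that differ by a final a or b, 89 were past 2-fold in opposite directions, which is 12.1%. Over all genes considered 26.5% were lower and 22.9% higher, so opposite calls also arise in pairs of unrelated genes. How often they do was not computed. In 13 of these 733 pairs, or 1.77%, the log2 differences lay at least as far apart as those of sox21a and sox21b, a gap of 7.59 whose size depends on the value listed at 0. This comparison of pairs was chosen after the sox21 values were seen, and the symbols do not show which pairs are true duplicates. Whether the duplicates share reads was not tested.

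**Figure D3:**
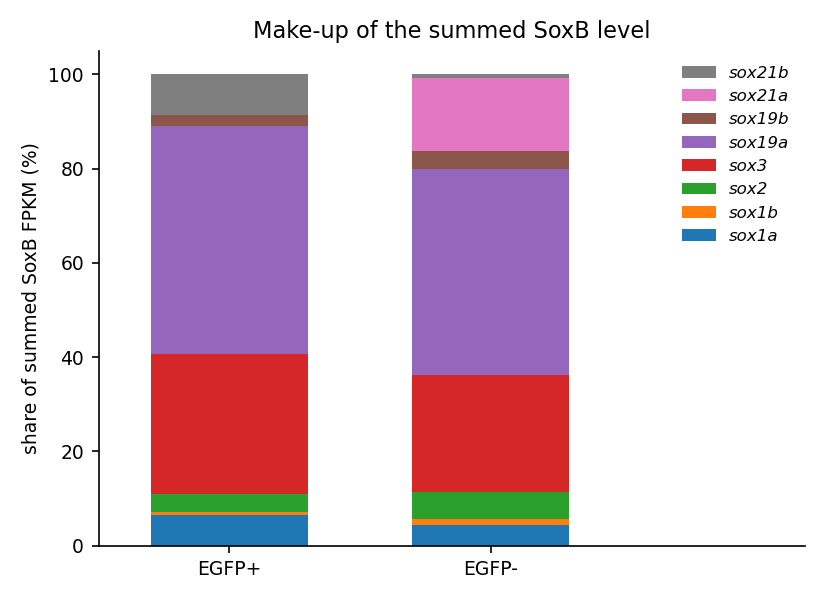
Share of the summed SoxB FPKM (vertical axis, %) held by each of the 8 genes in the EGFP+ and EGFP- libraries. Sox19a and sox3 fill most of both bars, while the SoxB2 part is sox21b (8.56%) in EGFP+ and mainly sox21a (15.3%) in EGFP- cells.

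The shares of SoxB1 and SoxB2 transcripts follow from the same sums. SoxB1 genes held 91.4% of the summed SoxB level in EGFP+ and 83.8% in EGFP- cells. SoxB2 genes held the remaining 8.56% and 16.2%. The larger SoxB2 share in EGFP- cells rests on sox21a, which is listed at 0 in EGFP+ cells. With only genes above 0 in both libraries, the log2 ratio of summed SoxB2 was 2.65 in place of -1.56. Shares of transcripts do not measure the activity of the proteins. The order of levels in EGFP- cells was sox19a, sox3, sox21a, sox2, sox1a, sox19b, sox1b and sox21b. In the EGFP+ library it was sox19a, sox3, sox21b, sox1a, sox2, sox19b, sox1b and sox21a. Without replicates, no neighbours in these orders can be separated by their spread. The SoxB1 genes kept their order apart from sox1a and sox2, which changed places.

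POU-domain genes, whose proteins pair with SoxB1 factors on DNA, were lower in EGFP+ cells in 5 of 8 cases, against 26.5% of all genes considered. Of the other POU genes 1 was higher and 2 lay less than 2-fold apart, and the median log2 difference was -1.06. With a pseudocount of 5 FPKM the number lower was 3, while over all genes considered it fell from 2571 to 1731. The neural class III gene pou3f3b stood at 26.8 against 118 FPKM, pou3f2b at 6.47 against 27.5 FPKM and pou3f1 at 9.60 against 26.0 FPKM, the EGFP+ value first. Pou3f3a stood at 63.3 against 128 FPKM, a log2 difference of -1.01 at the edge of the limit. Pou3f2a went the other way, at 25.4 against 10.2 FPKM. Pou5f3, the partner of sox19b in the early embryo, was listed at 0 in EGFP+ cells and at 1.17 FPKM in EGFP- cells.

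Other Sox groups did not share one direction. The SoxC genes, which act in differentiating neurons, were close in both libraries apart from sox4b: sox11a stood at 72.4 against 85.7 FPKM, sox11b at 68.9 against 72.8 FPKM and sox4a at 39.8 against 38.4 FPKM. Sox4b stood at 1.54 against 4.51 FPKM. The summed SoxC level was 0.907 of that in EGFP- cells. Of the SoxD genes, sox6 stood at 64.7 against 13.5 FPKM and sox5 at 212 against 124 FPKM. The summed SoxE level, over sox9a, sox9b and sox10, was 173 against 29.1 FPKM, with sox8b listed at 0 in both libraries. Sox7, a SoxF factor of vessels, stood at 26.3 against 60.5 FPKM. The SoxF gene sox17 was listed at 0 in EGFP+ cells and at 4.46 FPKM in EGFP- cells. These 2 SoxF genes considered were at least 2-fold lower, against 26.5% of all genes considered. In EGFP+ cells the summed SoxB1 level of 154 FPKM was thus close to the SoxE sum of 173 FPKM, while in EGFP- cells it was 220.2 against 29.1 FPKM.

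**Figure D4:**
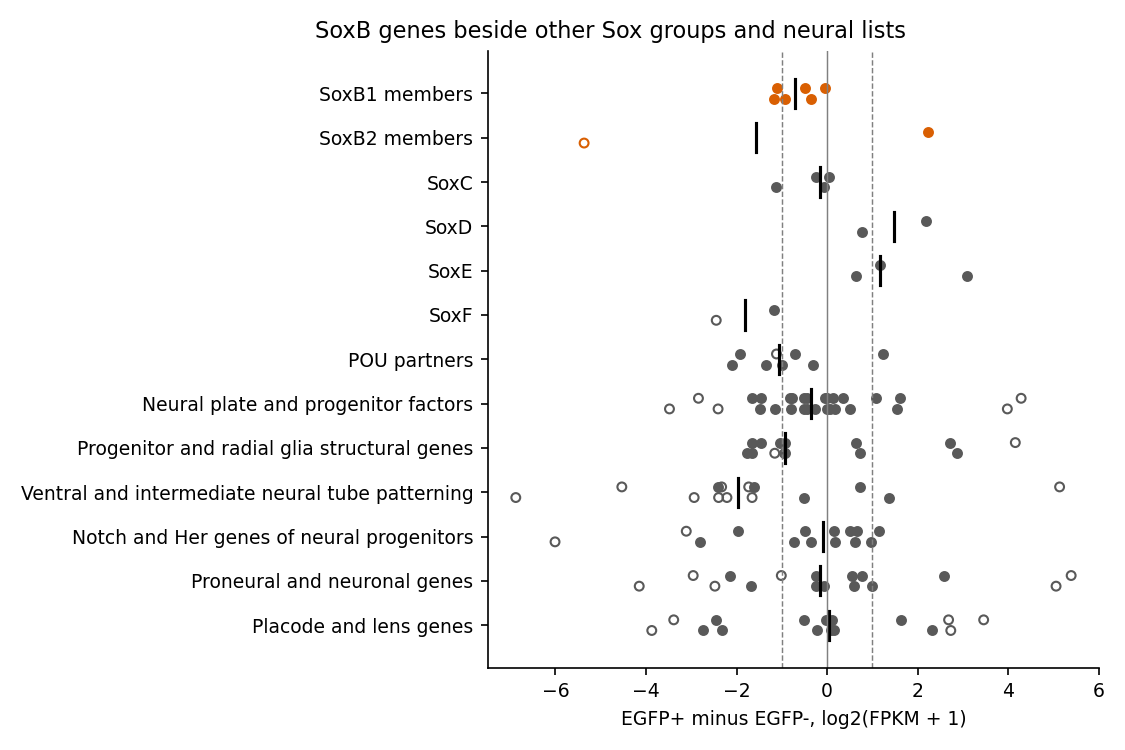
Log2 difference (EGFP+ minus EGFP-, log2(FPKM + 1), horizontal) of each gene at 1 FPKM or more, by Sox group and by neural list (vertical); open circles are genes listed at 0 in 1 library, black bars are medians and dashed lines mark 2-fold. SoxB1 genes lie between -1.18 and -0.06, SoxE genes all lie above 0, and the ventral and intermediate neural tube list has a median of -1.97 that rests largely on open circles.

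The lists of neural plate and progenitor factors and of progenitor structural genes were mixed in direction. Whether their genes mark the cells that express SoxB genes was not tested. Over all genes considered 26.5% were lower and 22.9% higher, the background for the counts here. Of 28 neural plate and progenitor factors considered, 7 were lower, 5 were higher and 16 lay less than 2-fold apart, with a median of -0.36. These counts lie close to that background. The largest differences among the neural plate and progenitor factors were genes listed at 0 in one library: the eye and forebrain factors rx3 (18.5 FPKM) and six3a (14.8 FPKM) in EGFP- cells, and lmx1ba (10.2 FPKM) and foxb1b (6.17 FPKM) in EGFP+ cells. Of 14 structural genes of progenitors and radial glia, 6 were lower and 3 higher, and the median was -0.94. The RNA-binding protein gene msi1 stood at 9.30 against 33.9 FPKM, whereas its relative msi2a stood at 31.6 against 3.46 FPKM.

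Patterning genes of the ventral and intermediate neural tube were lower in 10 of 14 cases and higher in 2, and most of these calls rest on values listed at 0. The higher gene pax2a (94.4 FPKM in EGFP+ and 35.7 FPKM in EGFP- cells) is also among the kidney markers. The progenitor factor dbx1b (117 FPKM) and pax2b (22.2 FPKM) were among 8 genes of this list that read 0 in EGFP+ cells, while olig4 (34.1 FPKM) was listed at 0 in EGFP- cells. Of all 9685 genes considered, 1343, or 13.9%, read 0 in EGFP+ cells. Over the 5 genes of this list above 0 in both libraries, 2 were lower and 1, pax2a, was higher. Their median was -0.50, against -1.97 over all 14. Of all genes considered 26.5% were lower. Of the 7449 of them above 0 in both libraries, 1228 were lower and 1325 higher. Neural tube markers had the lower summed level in the same library as the SoxB1 genes. The summed level of 8 such markers was 52.5 FPKM in EGFP+ and 247 FPKM in EGFP- cells. Of the 6 considered, 3 were lower, 0 higher and 3 less than 2-fold apart. Most of the EGFP- sum came from dbx1b and from nkx6.1, which stood at 10.8 FPKM in EGFP+ and 61.6 FPKM in EGFP- cells. Olig2 was listed at 0 in both libraries, and fabp7a and dbx1b were listed at 0 in EGFP+ cells. The ratio of these sums was 0.212, and without dbx1b, left out after its value was seen, it was 0.402. The ratio for SoxB1 was 0.702. The larger neural lists did not share one ratio. It was 0.546 for the ventral and intermediate list, 0.748 for progenitor structural genes and 0.996 for neural plate and progenitor factors. For Notch and Her genes it was 1.06 and for proneural and neuronal genes 1.07. The part of neural tube cells in the SoxB1 values was not tested.

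Neuronal and placodal genes showed no shared direction. Over all genes considered 22.9% were higher and 26.5% lower, the background for the counts below that include genes listed at 0. Of 16 proneural and neuronal genes considered, 3 were higher and 6 lower, and the median was -0.16. Over the 10 above 0 in both libraries, 1 was higher and 2 lower, and the median turned to 0.23. Of the 7449 genes considered that were above 0 in both libraries, 1325 were higher and 1228 lower. The summed level of 5 neuron markers was 170 against 112 FPKM, with gap43 listed at 0 in both libraries and elavl4 at 0 in EGFP+ cells. Of the 4 considered, 0 were higher and 1, elavl4, was lower. Elavl3 made up most of the sum, at 111.9 FPKM in EGFP+ and 76.2 FPKM in EGFP- cells. Neurog1, a proneural factor, was at 40.9 FPKM in EGFP+ cells and at 0 in EGFP- cells, and neurod1, at 16.8 FPKM in EGFP- cells, was listed at 0 in EGFP+ cells. Of 16 placode and lens genes, 5 were higher and 5 lower, and the median was 0.03; it was -0.02 over the 11 above 0 in both libraries. Of 14 Notch receptor, Delta ligand and Her repressor genes, which act in neural progenitors beside SoxB1, 4 were lower and 1 higher, a share of lower genes near that of all genes. The receptors notch1a, notch1b, notch2 and notch3 all lay less than 2-fold apart, the higher gene was the ligand dlb, and the ligand dld was among the lower ones. Her2 stood at 9.21 against 70.3 FPKM and her15.1, at 63.4 FPKM in EGFP- cells, was listed at 0 in EGFP+ cells. Her5, at 7.64 FPKM in EGFP- cells, also read 0 in EGFP+ cells. The genes her3, her6, her8a and her9 lay less than 2-fold apart, each with the higher value in EGFP+ cells. Of these, her9 stood at 247 against 125 FPKM and her6 at 304 against 271 FPKM. How far these cell types bear on the SoxB values was not tested.

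Among 119 genes of the neural, placode, POU and other Sox lists, those nearest to each SoxB gene were found by the distance between their log2(FPKM + 1) values over the 2 libraries. Sox1a lay nearest to pax6a, at a distance of 0.13, and sox2 nearest to plp1a, at 0.15, and then to ncam1b, at 0.20. Sox3 lay nearest to pou2f1a, at 0.23, and then to gmnn, which encodes geminin, at 0.26. Sox19a lay nearest to irx7, at 0.31, and notch1a, at 0.34. Sox19b lay nearest to meis1a, at 0.27, and sox1b to sox4b, at 0.45. Sox21a lay nearest to her15.1, at 0.64, and sox21b to the proneural gene ascl1b, at 0.39. With 2 libraries such likeness is common: 24 genes of the whole table lay at least as near to sox1a as pax6a did, pax6a included, and 174 lay at least as near to sox21a as her15.1 did.

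**Figure D5:**
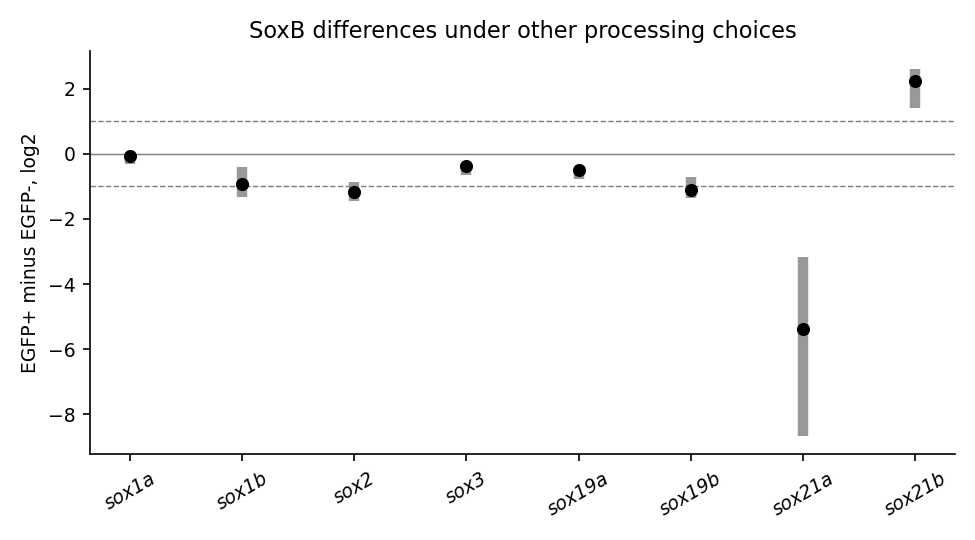
Log2 difference of each SoxB gene (EGFP+ minus EGFP-, vertical); the black point is the value at a pseudocount of 1 FPKM on the deposited scale, and the grey bar spans the values under other pseudocounts, filters and scalings. No bar crosses 0, and no pseudocount or filter could make a bar do so. The bars of sox1b, sox2 and sox19b cross the dashed 2-fold line. That of sox21a runs from -8.66 to -3.18 because it rests on a value listed at 0.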

How the data were processed

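RNA from EGFP+ and EGFP- cells was sequenced as 1 library each. The authors deposited 1 table of FPKM values with 14428 gene symbols. Per the submitters' processing notes it involved cutadapt, TopHat2 2.0.11, Cufflinks 2.2.1 and genome build Zv9; for options and annotation nothing is given in the sources used here. No step of whole reads could be found: of 712 genes under 6 FPKM in each library, at most 1.54% fell into any 1 bin of 0.02 in the log2 ratio, so depth is unknown and no counting interval is given.

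The log2 difference was log2(FPKM + 1) in EGFP+ minus EGFP- cells. Genes were considered at 1 FPKM or more in either library and called at 2-fold. The calling step was run on EGFP- values of the more abundant genes, multiplied by set factors. No noise was added, so that run checks the code and not the calls. The members and 24 gene lists were chosen with earlier results of these data known. Of 195 listed genes 183 had a row, 16 of them under an older symbol in the RefSeq gene table. From each list, up to 4 genes with the largest differences at 5 FPKM or more were eligible to be named. Also named were the members, crest markers, nearest genes and a few given for their role or call. Alternatives covered pseudocount, filter, scaling and fold. Python 3.11.15, pandas 2.3.3, numpy 2.4.6 and matplotlib 3.10.9 were used. Protein and promoter sequences were not used here.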

Additional observations from a re-analysis of the deposited data

How the results depend on the processing

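Under each pseudocount, filter and scaling that gave a value, the 6 SoxB1 genes and sox21a stayed lower in EGFP+ cells and sox21b stayed higher. For pseudocounts and filters this was fixed in advance, since neither can change the direction of a difference. Each rescaling lowered EGFP+ values relative to EGFP- values, so only sox21b could have changed direction. Sox21a has no value without genes at 0, and sox1b has none at a minimum of 5 FPKM. Of 70 values for single members, 65 kept their side of the 2-fold limit. Many of the 70 could not have moved, since a filter leaves the value of a kept gene unchanged. Adding rows that join several symbols also changed nothing, because no member is in such a row. With a pseudocount of 5 FPKM, sox2 (-0.86) and sox19b (-0.73) no longer passed it, and sox1b passed it at a pseudocount of 0.1 FPKM (-1.34), after rescaling to equal sums (-1.12) and after rescaling without rn7sk (-1.04). Rescaling to equal sums moved the median of all genes by -0.27 and rescaling without rn7sk by -0.16. The log2 ratio of summed SoxB1 ran from -0.80 to -0.51. The number of members lower was 1 in place of 3 with a pseudocount of 5 FPKM and 1 at a limit of 3-fold. The log2 ratio of summed SoxB2 was -1.56, and it reversed to 2.65 when only genes above 0 in both libraries were kept, since sox21b is then the single gene.

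With a pseudocount of 5 FPKM, the number lower became 0 for SoxC, 1 for SoxF, 3 for POU genes, 4 for neural plate factors and 4 for ventral neural tube genes, and the number higher became 1 for SoxE. With a minimum of 5 FPKM, the number lower was 0 for SoxC, 1 for SoxF and 5 for ventral neural tube genes. Over all genes that reached this minimum, 2040 were lower and 1860 higher. With genes above 0 in both libraries, the numbers lower and higher were 4 and 3 for neural plate factors, 2 and 1 for ventral neural tube genes, 2 and 1 for neuronal genes and 3 and 2 for placode genes; the number lower was 1 for SoxF and 2 for Notch and Her genes. After rescaling to equal sums, the number higher was 1 for SoxE, 0 for POU genes and 0 for Notch and Her genes. With that rescaling 10 progenitor structural genes were lower. Rescaling can bring in genes under the 1 FPKM minimum on the deposited scale, such as prom1b at 0.94 FPKM in EGFP- cells. Those 10 therefore need not all be among the 14 considered above. Over all genes considered, 3031 were then lower and 1866 higher. Without rn7sk, 0 Notch and Her genes were higher, and over all genes 2834 were lower and 1993 higher. Of 297 values for the other lists, 266 stayed within 1.5 times, medians taken as ratios. Those with joined rows added to a member could not have moved. The cause of the values beyond that range was not tested. A median near 0 can change sign within that range, as that of the neuronal genes did without genes at 0, from -0.16 to 0.23. No paired analysis was possible because each group is 1 library, which also leaves no replicate to leave out.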

Other observations

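Several genes of the eye, lens and placodes, tissues in which SoxB1 factors also act, were measured in EGFP+ cells and listed at 0 in EGFP- cells. Besides rx3 and six3a these were the lens factor foxe3 (9.98 FPKM), the lens crystallin gene crybb1 (5.64 FPKM) and the placode factor dlx4b (5.42 FPKM). The placode and lens list was not uniform, since six1a (13.7 FPKM) and emx2 (9.47 FPKM) in EGFP- cells were listed at 0 in EGFP+ cells. Over all genes considered, 893 of 9685, or 9.22%, read 0 in EGFP- cells. The lens and pituitary factor pitx3 stood at 4.60 FPKM in EGFP+ and 36.3 FPKM in EGFP- cells, and prox1a stood at 12.3 against 65.3 FPKM. These genes were singled out after their values were seen.

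Some gene pairs other than sox21 also went in opposite directions. Ascl1b, a proneural gene, stood at 19.2 against 2.39 FPKM, while ascl1a was listed at 0 in EGFP+ cells and at 6.77 FPKM in EGFP- cells. Pax2a stood at 94.4 against 35.7 FPKM, while pax2b was listed at 0 in EGFP+ cells. Six4b stood at 53.2 against 9.87 FPKM and six4a at 3.85 against 25.8 FPKM. Msi2a was higher, while msi2b stood at 8.43 against 28.8 FPKM. Over the 507 pairs in which both symbols were above 0 in both libraries, 7.1% were past 2-fold in opposite directions. Of the 7449 genes considered that were above 0 in both libraries, 1325 were higher and 1228 lower. The share for pairs of unrelated genes was not computed.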
